A study of Mus musculus with 4 samples.

Results

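The levels of 10 genes best known from microglia, the resident macrophages of the brain, were read in macrophages of the mouse dermis. The genes were Tmem119, Siglech, Sall1, Olfml3, Gpr34, Fcrls, Trem2, Adgrg1, Bin1 and Golm1. They were found by symbol among the array rows that the platform annotation gives exactly 1 gene symbol, and each had 1 such row, so that 10 of the 22180 genes of the table were followed. RNA was measured on 4 Affymetrix whole-transcript arrays, 2 of CX3CR1bright and 2 of CX3CR1low macrophages sorted from ear skin. Both subsets came from the same kind of animal, untreated adult C57Bl/6 mice of genotype Cx3cr1+/gfp, in which GFP stands in for 1 of the Cx3cr1 alleles, so that the cells of both subsets carry a single working copy of the fractalkine receptor gene. Each sample pooled 3 to 6 mice, with a different litter behind each of the 2 replicates of a subset. The subsets are gates on fluorescence and not cell types proven to be pure.

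Microglia arise from yolk sac precursors, depend on the CSF1 receptor, and hold their identity through the transcription factor SALL1 and through TGF-beta signals in the brain. Macrophages of other tissues share much of the receptor equipment of microglia but usually lack that identity programme. CX3CR1bright macrophages of the dermis are discussed as cells associated with skin nerves, which raises the question of which microglia-type genes they express and whether the CX3CR1low cells express them as well.

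The values are RMA levels on a log2 scale, on which a step of 1 is a doubling, and levels are not compared between different genes because each gene has its own probes. Array medians lay between 3.65 and 3.68. A level was called above background when it exceeded the 95th percentile, on that array, of 1405 olfactory, vomeronasal and trace amine receptor genes, which macrophages do not normally use. That percentile was 3.93 and 3.95 on the CX3CR1bright arrays and 3.97 and 3.87 on the CX3CR1low arrays. Of all 22180 genes, 48% were above background on both CX3CR1bright arrays, 48.1% on both CX3CR1low arrays and 45.2% on all 4. The gate could be checked with Cx3cr1, which stood at 8.42 and 8.44 in CX3CR1bright cells and at 3.63 and 3.60 in CX3CR1low cells. All 13 measured macrophage markers, such as Adgre1, Csf1r and Mertk, were above background on all 4 arrays. CX3CR1bright replicate 2 stood apart in its keratinocyte genes, whose mean level was 6.17 and 7.78 on CX3CR1bright replicates 1 and 2 and 5.84 and 5.34 on the CX3CR1low arrays. The arrays hold bulk RNA, so fewer cells of a type and less RNA per cell cannot be told apart.

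Of the 10 genes, 9 were above background on every array of both subsets, and Sall1 was below it on every array. The same 9 genes were therefore detected in the CX3CR1bright and in the CX3CR1low samples. Genes of other skin cells were also above background on all 4 arrays, 10 of 12 measured fibroblast genes and 9 of 11 measured keratinocyte genes. Which cells of the samples held the RNA of the 9 genes was not tested. With the 99th percentile of the receptor genes as the limit, all 9 stayed above it on both CX3CR1bright arrays, and 6 did so on both CX3CR1low arrays. Tmem119 missed that stricter limit on CX3CR1low replicate 2, and Olfml3 and Golm1 missed it on CX3CR1low replicate 1.

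**Figure D1:**
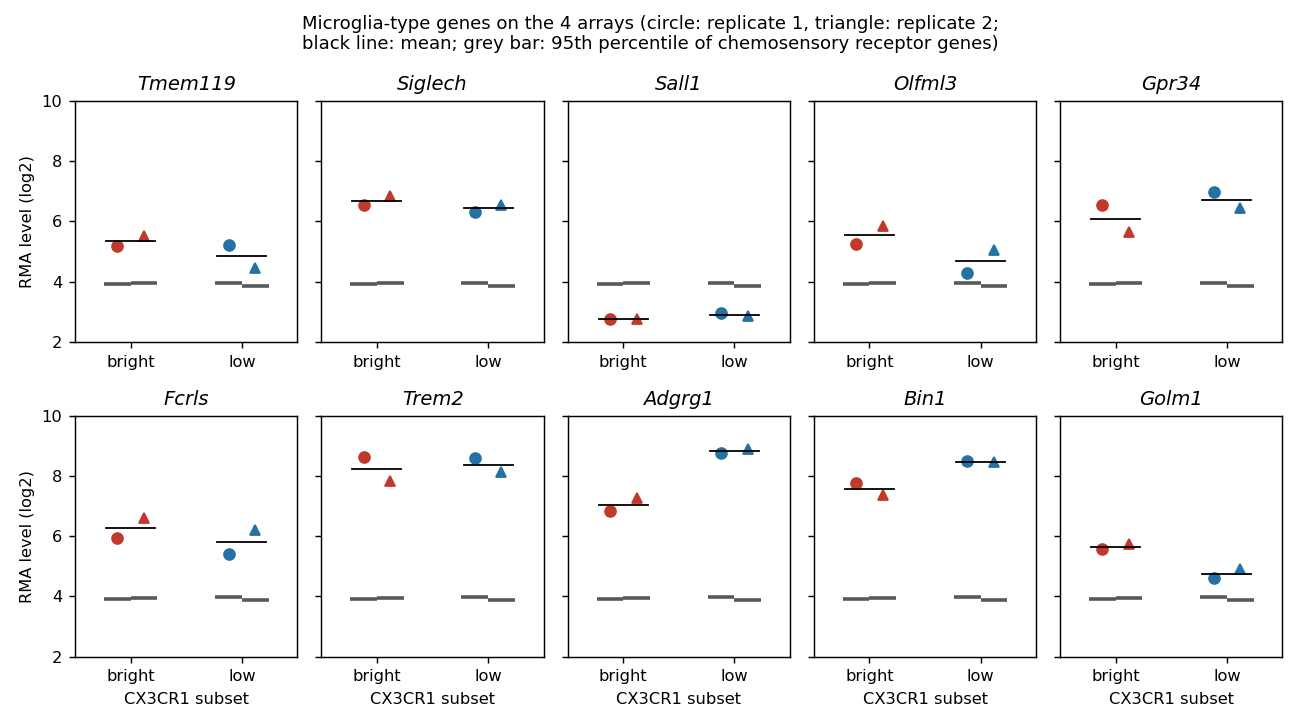
RMA level (log2) of each of the 10 genes on the 2 CX3CR1bright arrays (red, left) and the 2 CX3CR1low arrays (blue, right), with the subset mean as a black line and each array's background limit as a grey bar. All points of Sall1 lie under the bars and all points of the other 9 genes lie above them, and Adgrg1 has the widest gap between the subsets.

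The 9 detected genes were tested between the subsets in a fit over 13133 genes (limma, Benjamini-Hochberg adjustment, threshold 0.05). None of the 9 passed, against 18 of the 13133 genes or 0.137%. At an unadjusted p under 0.05 (limma), 3 of the 9 were found, Adgrg1, Bin1 and Golm1, against 18.8% of all genes tested. The arrays of the subsets did not overlap for 5 of the 9, which is to be read against 50.4% of all genes. CX3CR1bright lay above for 3 of them (18.9% of all genes) and below for 2 (31.5% of all genes). The median difference, CX3CR1bright minus CX3CR1low, was 0.25 over the 9 genes and -0.07 over all genes tested, with 5 of the 9 positive and 4 negative.

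Sall1, the zinc-finger factor that maintains microglial identity, had levels of 2.75 and 2.78 in CX3CR1bright cells and 2.95 and 2.87 in CX3CR1low cells. All 4 values lay close to the medians of the chemosensory receptor genes, 2.60 to 2.62, and no difference is read from them. Its relative Sall3 was also below background on all 4 arrays, at 3.09 and 3.32 in CX3CR1bright cells and at 2.66 and 2.90 in CX3CR1low cells. Transcripts of neither factor were thus detectable above background in either subset with these probes.

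Among the receptors, Adgrg1 had the largest difference of the 9 genes. It encodes GPR56, an adhesion G protein-coupled receptor of microglia that is also found on neural progenitors and cytotoxic lymphocytes. Its levels were 6.82 and 7.26 in CX3CR1bright cells and 8.76 and 8.88 in CX3CR1low cells. Both CX3CR1bright arrays lay below both CX3CR1low arrays, with 1.51 log2 units between the nearest arrays. The means were 7.04 ± 0.31 in CX3CR1bright and 8.82 ± 0.08 in CX3CR1low cells (SD, n = 2). The difference was -1.78 ± 0.23 (SE), with a 95% interval of -2.35 to -1.21, or 3.44-fold less in CX3CR1bright cells, and its adjusted p was 0.0706 (limma). The call depended on the variance model and the filter: the adjusted p was 0.0201 (limma) with an intensity trend in the variance and 0.0448 (limma) when only genes above the array median on all 4 arrays were tested. With 1 array left out at a time the difference ran from -2.00 to -1.57 and the adjusted p (limma) did not pass. In these samples the lower level of this microglia receptor was thus in the cells with more CX3CR1.

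Adgrg1 has 2 promoter windows in the RefSeq table (GRCm38.p6), and the downstream one, chr8:94984149-94984398 on the plus strand, is shown. The gene was chosen because it differed most between the subsets, and the window because it holds the AP-1 string, which the upstream window lacks. Fcrls (chr3:87263525-87263774, minus strand) and Trem2 (chr17:48346151-48346400, plus strand) are shown beside it because their windows hold the ETS-type string marked below. Both are detected receptor genes without a clear difference. The window of Siglech, another such gene, lacks that string and is not shown. No contrast between differing and other genes is therefore read from the strings. Each line gives the 250 bases before the start, 5′ to 3′ along the gene. Capitals mark the AP-1 string TGACTCA or its reverse complement in Adgrg1, and the ETS-type string GAGGAAG or its reverse complement, of the kind that PU.1 binds, in the other two.
Adgrg1: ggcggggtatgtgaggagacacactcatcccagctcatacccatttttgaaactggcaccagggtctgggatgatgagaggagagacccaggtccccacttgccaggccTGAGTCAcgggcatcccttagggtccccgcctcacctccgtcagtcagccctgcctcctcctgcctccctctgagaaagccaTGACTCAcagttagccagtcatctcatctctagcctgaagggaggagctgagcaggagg
Fcrls: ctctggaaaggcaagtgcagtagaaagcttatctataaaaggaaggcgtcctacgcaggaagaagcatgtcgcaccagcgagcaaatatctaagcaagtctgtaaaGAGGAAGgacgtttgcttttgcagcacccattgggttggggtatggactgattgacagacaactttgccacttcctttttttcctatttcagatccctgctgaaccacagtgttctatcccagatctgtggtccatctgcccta
Trem2: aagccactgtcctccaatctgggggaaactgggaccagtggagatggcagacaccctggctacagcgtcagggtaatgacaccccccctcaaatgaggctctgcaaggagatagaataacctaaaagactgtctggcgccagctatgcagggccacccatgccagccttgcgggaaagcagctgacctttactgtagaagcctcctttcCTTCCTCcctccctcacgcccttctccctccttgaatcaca

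The AP-1 string occurred at 2 places in the Adgrg1 window, 141 and 59 bases before the start, while 4.46% of all 32851 windows of that length and 1 of the 10 windows of the microglia-type genes held it at all. The ETS-type string began 144 bases before the start in Fcrls and 41 in Trem2, where it lies in a pyrimidine-rich run, and 10.6% of all windows and 2 of those 10 held it. RefSeq windows were matched for 7 of the 10 genes, 10 windows in all. A set of 9 strings was searched on both strands after the windows had been seen, and several of them overlap each other. Of the other ETS-type strings, AGGAAGT was present in 7.69% of all windows, GAGGAAGT in 2.44%, AGAGGAA in 8.55% and GGGGAAGT in 1.24%. The SMAD-type string CAGAC was present in 42.2% of all windows, the TATA-type string TATAAA in 12.4% and the GC box GGGCGG in 32.7%. Among the 10 windows of the microglia-type genes these counts were 2 for AGGAAGT, 0 for GAGGAAGT, 1 for AGAGGAA, 0 for GGGGAAGT, 7 for CAGAC, 2 for TATAAA and 4 for GGGCGG. The 3 windows of Sall1, the gene at background, held 13, 25 and 30 CpG dinucleotides, and that of Golm1 held 20, against a median of 6 over all windows and 2 to 6 in the windows of the other 5 genes. Binding was not measured on these arrays.

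Trem2, the lipid-sensing receptor that signals through the adaptor DAP12, was detected in both subsets. It stood at 8.63 and 7.83 in CX3CR1bright cells and at 8.59 and 8.13 in CX3CR1low cells. The subsets overlapped, and the spread within each was larger than the difference of -0.13 ± 0.34 (SE; adjusted p = 0.884, limma). The 95% interval, -0.98 to 0.73, spans a CX3CR1low level up to 1.97-fold higher and a CX3CR1bright level up to 1.66-fold higher. The sign changed after quantile normalization (0.00028), after cyclic loess (0.012), without CX3CR1low replicate 1 (0.11) and without CX3CR1bright replicate 2 (0.28), so no direction is given.

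Gpr34, a receptor for lysophosphatidylserine, had levels of 6.53 and 5.64 in CX3CR1bright cells and 6.98 and 6.44 in CX3CR1low cells. CX3CR1bright replicate 1 lay within the CX3CR1low range, so the subsets overlapped. The difference was -0.63 ± 0.37 (SE), with a 95% interval of -1.55 to 0.30 (adjusted p = 0.425, limma). Without CX3CR1bright replicate 2 it was -0.18, and without CX3CR1bright replicate 1 it was -1.07.

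Siglech, a sialic acid-binding lectin of mouse microglia and plasmacytoid dendritic cells that also pairs with DAP12, stood at 6.56 and 6.83 in CX3CR1bright cells and at 6.32 and 6.55 in CX3CR1low cells. The 2 ranges only just fail to overlap, with 0.0042 log2 units between them, and after median centring of the arrays they overlap. The difference of 0.25 ± 0.21 (SE) had a 95% interval of -0.27 to 0.78 (adjusted p = 0.570, limma). With 1 array left out it ran from 0.12 without CX3CR1bright replicate 2 to 0.39 without CX3CR1bright replicate 1, and it was 0.14 without CX3CR1low replicate 1. In fold terms the interval runs from 0.827 to 1.72.

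Fcrls, an Fc receptor-like scavenger receptor studied mainly in mice, was at 5.95 and 6.59 in CX3CR1bright cells and at 5.40 and 6.22 in CX3CR1low cells. The subsets overlapped, and within each subset the replicates lay further apart than the subset means. The difference was 0.46 ± 0.37 (SE), with a 95% interval of -0.47 to 1.39 (adjusted p = 0.559, limma), and leaving out 1 array gave 0.05 to 0.87.

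Tmem119, a transmembrane protein used as a marker to tell microglia from infiltrating macrophages, was above background in both dermal subsets. Its levels were 5.19 and 5.52 in CX3CR1bright cells and 5.23 and 4.44 in CX3CR1low cells. CX3CR1low replicate 1 lay between the CX3CR1bright arrays, and CX3CR1low replicate 2 was the lowest of the 4. The difference of 0.52 ± 0.32 (SE) had a 95% interval of -0.28 to 1.32 (adjusted p = 0.445, limma). It was 0.91 without CX3CR1low replicate 1 and 0.13 without CX3CR1low replicate 2.

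Olfml3, a secreted olfactomedin-like protein, had levels of 5.24 and 5.84 in CX3CR1bright cells and 4.30 and 5.05 in CX3CR1low cells. Both CX3CR1bright arrays lay above both CX3CR1low arrays, by 0.19 log2 units at the nearest. The difference was 0.87 ± 0.35 (SE), with a 95% interval of -0.01 to 1.75 (adjusted p = 0.269, limma). It was 0.49 without CX3CR1low replicate 1 and 1.25 without CX3CR1low replicate 2.

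Golm1, a membrane protein of the Golgi apparatus, stood at 5.57 and 5.74 in CX3CR1bright cells and at 4.61 and 4.91 in CX3CR1low cells. The CX3CR1bright arrays were both above the CX3CR1low arrays, with 0.66 log2 units between the nearest. The means of 5.65 ± 0.12 in CX3CR1bright and 4.76 ± 0.21 in CX3CR1low cells (SD, n = 2) differed by 0.89 ± 0.21 (SE), or 1.86-fold, with a 95% interval of 0.37 to 1.42. The adjusted p was 0.135 (limma), and with 1 array left out the difference stayed between 0.74 and 1.04.

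Genes of other skin cells also had positive differences, which 42.5% of all genes tested had. All 11 tested fibroblast genes were positive, with a median of 0.91, 0 passed (limma), 8 had an unadjusted p under 0.05 (18.8% of all genes), and 10 of them did not overlap between the subsets (18.9% of all genes lie that way). The mean level of the 12 measured fibroblast genes was 6.21 and 6.35 on the CX3CR1bright arrays and 5.50 and 5.42 on the CX3CR1low arrays. Col1a1, a collagen chain made by fibroblasts, stood at 8.38 and 8.31 in CX3CR1bright and at 6.91 and 7.12 in CX3CR1low samples. The 10 tested keratinocyte genes were all positive as well, with a median of 1.66. Of these, 0 passed and 3 had an unadjusted p under 0.05 (limma), against 18.8% of all genes. The subsets did not overlap for 6 of the 10 (18.9% of all genes lie that way). The other 4, the epidermal differentiation genes Krt1, Krt10, Sfn and Lor, overlapped. The part of these cells in the differences of Olfml3 and Golm1 was not tested. When CX3CR1bright replicate 2 was left out, which had the highest keratinocyte mean, Golm1 differed by 0.81 and Olfml3 by 0.57, and without CX3CR1bright replicate 1 by 0.98 and 1.17. Each of these fits keeps 1 CX3CR1bright array, so keratinocyte content and other differences between the replicates cannot be told apart.

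Bin1 encodes a membrane-curving adaptor of endocytosis and lies at a risk locus for Alzheimer's disease in humans. Its levels were 7.75 and 7.36 in CX3CR1bright cells and 8.48 and 8.45 in CX3CR1low cells. Both CX3CR1bright arrays lay below both CX3CR1low arrays, by 0.70 log2 units at the nearest. The means were 7.55 ± 0.27 in CX3CR1bright and 8.46 ± 0.02 in CX3CR1low cells (SD, n = 2). The difference of -0.91 ± 0.21 (SE), 1.88-fold less in CX3CR1bright cells, had a 95% interval of -1.45 to -0.37 and an adjusted p of 0.136 (limma). Under all 13 alternative settings it stayed negative, from -1.11 to -0.72, and the adjusted p (limma) ran from 0.0684 to 0.521.

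**Figure D2:**
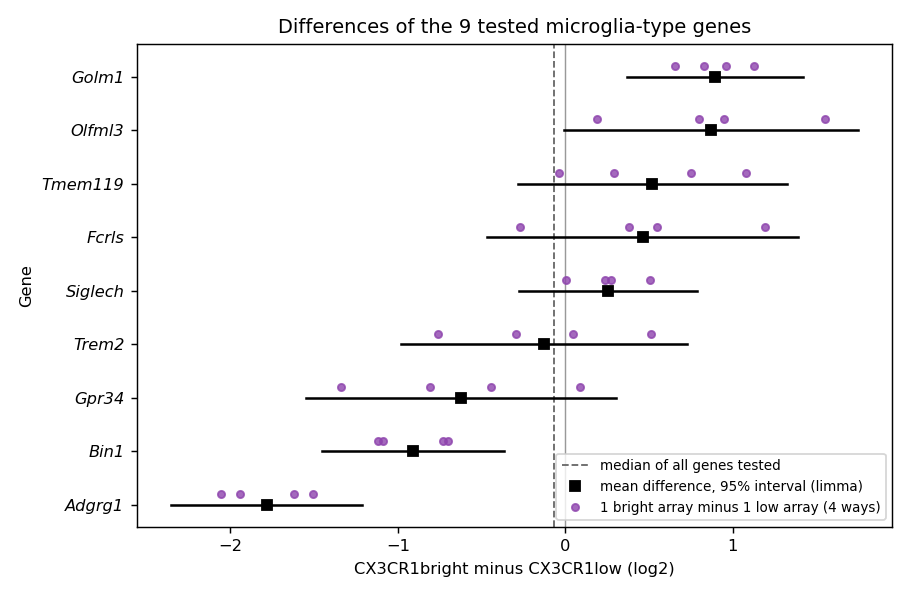
Difference between CX3CR1bright and CX3CR1low macrophages (log2) for the 9 tested genes. Squares with lines are the mean difference and its 95% interval from limma, purple points are the 4 differences between single arrays, and the dashed line is the median of all genes tested, -0.07. The intervals of Adgrg1, Bin1 and Golm1 lie to 1 side of 0 and those of the other 6 genes include 0.

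Siglech and Adgrg1 are also genes of lymphoid or plasmacytoid cells that a skin sort could hold. Of the 11 measured genes of the plasmacytoid dendritic cell list, Siglech included, 6 were above background on all 4 arrays: Siglech, the transcription factor gene Tcf4, the interferon-induced gene Bst2, Ly6d, Cox6a2 and Lefty1. Tcf4 stood at 8.76 and 8.73 in CX3CR1bright cells and at 8.64 and 8.82 in CX3CR1low cells. The chemokine receptor gene Ccr9, the transcription factor gene Spib and Klk1 were below background on all 4, at 3.19 and 2.90 in CX3CR1bright and at 3.10 and 2.84 in CX3CR1low cells for Ccr9. Spib stood at 2.88 and 3.51 in CX3CR1bright cells and at 3.17 and 3.05 in CX3CR1low cells. Of the 11 measured NK and cytotoxic T cell genes, 1 was above background on all 4 arrays, Tbx21, a transcription factor of type 1 lymphocytes. Ncr1, Gzma, Prf1, Klrb1c and Eomes were below it on all 4. The mean level of that list was 4.16 and 3.70 in CX3CR1bright cells and 3.69 and 3.40 in CX3CR1low cells. All 7 tested genes of the list had positive differences, against 42.5% of all genes tested. Of the 7, 0 passed (limma) and 2 had an unadjusted p under 0.05, against 18.8% of all genes tested. The part of plasmacytoid or cytotoxic cells in the levels of Siglech and Adgrg1 was not tested.

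Other genes of microglia were mostly detected too. Of 24 listed, 19 were measured, and 15 of these were above background on all 4 arrays. Slc2a5, a fructose transporter, Crybb1, a crystallin gene of microglia, and Sall3 were below it on all 4. None of the 15 tested genes passed over all genes (limma), and 3 had an unadjusted p under 0.05, 1 positive and 2 negative, a share close to the 18.8% of all genes against which this and the list counts that follow are to be read. The median was -0.14. P2ry12, the ADP receptor that guides microglial processes to sites of injury, stood at 7.26 and 7.17 in CX3CR1bright and at 7.68 and 7.72 in CX3CR1low cells, a difference of -0.48 ± 0.18 (SE; adjusted p = 0.246, limma). The subsets did not overlap, with CX3CR1bright below CX3CR1low, as was so for 31.5% of all genes tested. Sparc, a matrix protein of microglia and of fibroblasts, stood at 7.30 and 7.22 in CX3CR1bright and at 6.65 and 6.72 in CX3CR1low cells (adjusted p = 0.193, limma). Rhob, a small GTPase, differed by -0.66 ± 0.20 (SE; adjusted p = 0.183, limma), and Cmtm6, which stabilises PD-L1 at the cell surface, by -0.54 ± 0.25 (SE; adjusted p = 0.318, limma).

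All 11 measured transcription factors that act in microglia were above background on all 4 arrays, unlike Sall1. Of these, 0 passed over all genes and 1 had an unadjusted p under 0.05 (limma), Jun, a subunit of AP-1, at 10.09 and 10.13 in CX3CR1bright and 10.77 and 10.83 in CX3CR1low cells (adjusted p = 0.154, limma). With 9 of 11 negative (57.5% of all genes tested were), the median was -0.31. Maf differed by -0.43 ± 0.24, Irf8 by -0.42 ± 0.24 and Egr1 by -0.41 ± 0.24 (SE), none past the threshold.

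Around TREM2, the adaptor gene Tyrobp, which encodes DAP12, was at 11.05 and 10.69 in CX3CR1bright and 10.99 and 10.97 in CX3CR1low cells. Like Trem2 itself, it overlapped between the subsets (difference -0.11 ± 0.21, SE; adjusted p = 0.828, limma). All 11 measured genes of the list were above background on all 4 arrays. None passed (limma), and 2 had an unadjusted p under 0.05. These were Syk, the kinase that DAP12 recruits, at -0.49 ± 0.18, and Plxna1, a plexin that pairs with TREM2, at -0.67 ± 0.21 (SE). Vav3 and Pik3cd differed by -0.37 ± 0.18 and -0.37 ± 0.20 (SE). The list median was -0.35, against -0.07 over all genes, and 8 of 11 were negative, as were 57.5% of all genes tested.

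The genes that microglia raise around amyloid plaques, several of them under TREM2 control, went both ways. Of 19 tested, 6 were positive and 13 negative (57.5% of all genes tested were negative), with a median of -0.26. None passed over all genes (limma), and 9 had an unadjusted p under 0.05, 5 positive and 4 negative, which is 18.8% over all genes. Axl, a receptor tyrosine kinase for dying cells, stood at 10.15 and 10.36 in CX3CR1bright cells and at 7.89 and 7.30 in CX3CR1low cells. Cd9, a tetraspanin, stood at 8.99 and 9.08 in CX3CR1bright cells and at 7.44 and 7.52 in CX3CR1low cells. The integrin gene Itgax stood at 6.88 and 6.61 in CX3CR1bright cells and at 4.75 and 5.36 in CX3CR1low cells. All 3 had both CX3CR1bright arrays above both CX3CR1low arrays (18.9% of all genes lie that way), at adjusted p-values of 0.0541, 0.0632 and 0.0913 (limma). Ctsl, a lysosomal protease, was on the other side at 8.42 and 8.31 in CX3CR1bright and 9.57 and 9.54 in CX3CR1low cells (adjusted p = 0.0845, limma). Over the list, 6 genes did not overlap with CX3CR1bright above, and 11 with CX3CR1bright below (31.5% of all genes lie that way). Differences were also positive for 6 of 7 tested Langerhans cell genes and 7 of 11 tested conventional dendritic cell genes (42.5% of all genes). Of the Langerhans cell genes, Epcam stood at 4.53 and 6.73 and Cldn1 at 6.89 and 8.81 on CX3CR1bright replicates 1 and 2. The keratinocyte mean was also higher on replicate 2. Il1r2 stood at 8.18 and 7.98 there and Cd207 at 6.97 and 7.54. The part of Langerhans and conventional dendritic cells in the differences of Axl, Cd9 and Itgax was not tested.

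Of the TGF-beta pathway, on which microglial identity depends, 0 of 19 tested genes passed (limma), and 8 had an unadjusted p under 0.05, 5 positive and 3 negative, against 18.8% of all genes. The receptor gene Tgfbr1 stood at 8.26 and 8.33 in CX3CR1bright cells and at 6.96 and 7.22 in CX3CR1low cells. Itgav, an integrin chain that activates the latent ligand, stood at 9.50 and 10.02 in CX3CR1bright cells and at 8.46 and 8.38 in CX3CR1low cells. Smad7, an inhibitor induced by the pathway, differed by 0.89 ± 0.21 and the ligand gene Tgfb3 by 1.14 ± 0.32 (SE), with adjusted p-values of 0.137 and 0.170 (limma). The list median was 0.16. In the list of the CSF1 receptor and related genes, Csf1 differed by 0.63 ± 0.19, Csf3r by -1.04 ± 0.35, Csf1r by -0.34 ± 0.19 and Csf2ra by -0.38 ± 0.27 (SE), and 0 of 6 passed (limma), with 2 at an unadjusted p under 0.05.

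Genes of brain border macrophages, the neighbours of microglia in meninges and vessel walls, were set beside them. All 14 measured genes were above background on all 4 arrays, 13 were negative (57.5% of all genes tested were), and the median was -1.0. None passed (limma), and 9 had an unadjusted p under 0.05, against 18.8% of all genes. Folr2, a folate receptor, stood at 10.10 and 10.17 in CX3CR1bright and at 11.20 and 11.38 in CX3CR1low cells. Cbr2 differed by -1.06 ± 0.18 and F13a1 by -1.15 ± 0.27 (SE). The exception was Clec12a, a lectin-like receptor, at 9.70 and 9.03 in CX3CR1bright and at 7.71 and 6.34 in CX3CR1low cells.

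**Figure D3:**
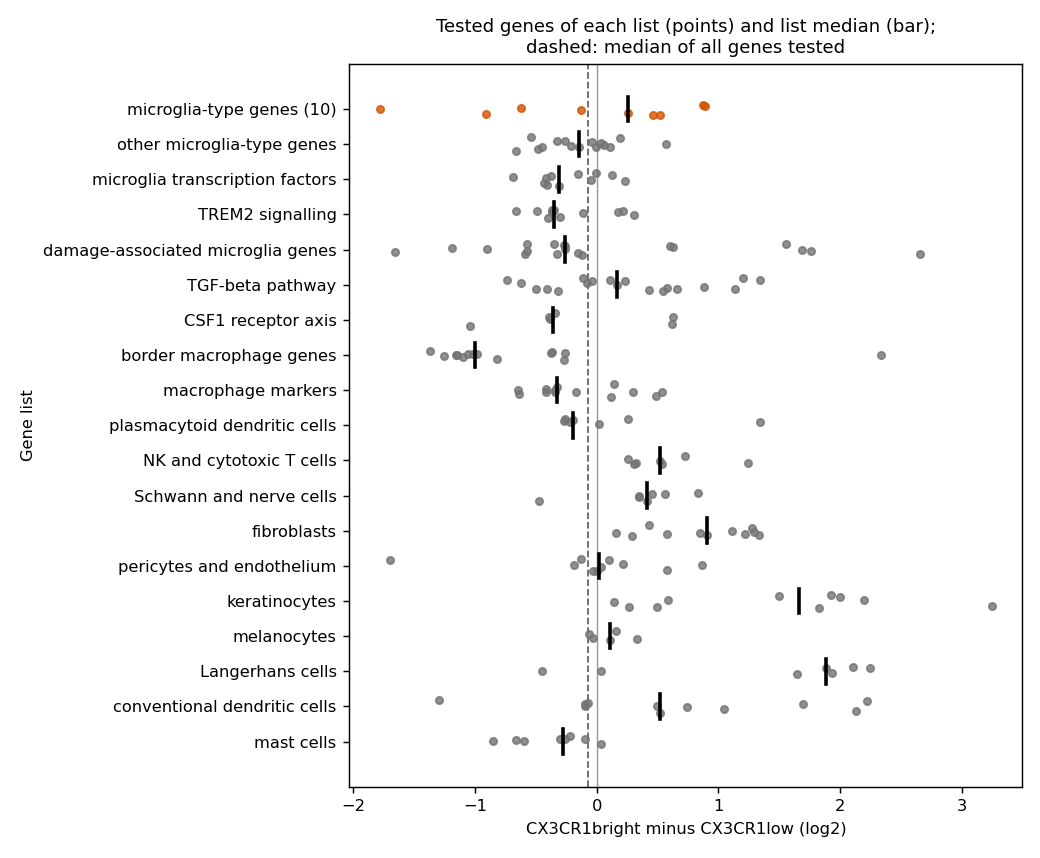
Differences between CX3CR1bright and CX3CR1low macrophages (log2) of the tested genes of each list, 1 point a gene, with the list median as a bar and the median of all genes tested as a dashed line. The 9 tested microglia-type genes (orange) spread from -1.78 to 0.89 around a median of 0.25, border macrophage genes have a median of -1.0 and fibroblast genes one of 0.91.

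Genes of skin nerves were looked at because of the nerve association. Of 10 measured Schwann and nerve cell genes, 4 were above background on all 4 arrays, and Pmp2, Cdh19 and S100b were below it on all 4. The list had a mean level of 4.63 and 4.66 in CX3CR1bright and 4.55 and 4.41 in CX3CR1low cells. Of 7 tested genes 6 were positive (42.5% of all genes tested were), 0 passed (limma) and 2 had an unadjusted p under 0.05. Scn7a, a sodium channel of Schwann cells, stood at 4.59 and 4.84 in CX3CR1bright and at 3.86 and 3.90 in CX3CR1low cells, and Pmp22, a myelin protein gene that other cells use widely, at 10.96 and 10.99 in CX3CR1bright and at 11.45 and 11.45 in CX3CR1low cells. The part of nerve cell transcripts in the levels of the 9 genes was not tested.

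The genes whose 4 values ran closest to Adgrg1 and Golm1 were found by Euclidean distance after each gene was centred on its mean over the 4 arrays. Nearest to Adgrg1 were Trnp1 (distance 0.12), Cd4 (0.17) and the potassium channel gene Kcnq1 (0.18). Cd4 stood at 6.56 and 7.08 in CX3CR1bright cells and at 8.67 and 8.84 in CX3CR1low cells. Nearest to Golm1 were Fstl1 (0.08), P3h4 (0.09) and the predicted gene Gm13546 (0.09). Fstl1 stood at 5.72 and 5.99 in CX3CR1bright cells and at 4.83 and 5.14 in CX3CR1low cells. Over 4 arrays many genes lie close together by this measure, so it is given as a description.

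**Figure D4:**
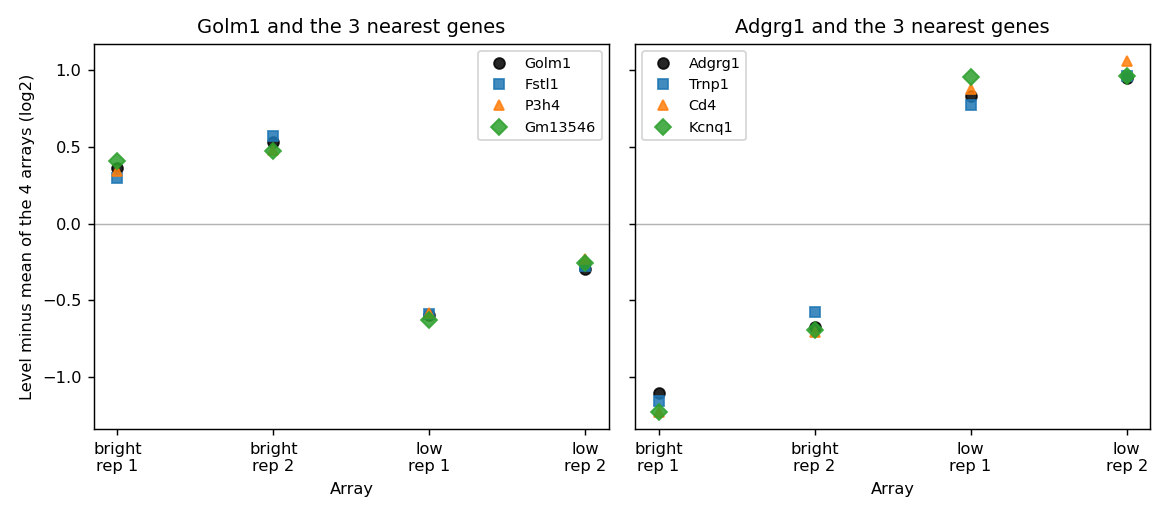
Level minus the gene's mean over the 4 arrays (log2) for Golm1 (left) and Adgrg1 (right), each with the 3 genes nearest to it. The 3 genes near Adgrg1 have both CX3CR1bright arrays below 0 and both CX3CR1low arrays above it, and those near Golm1 run the other way.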

How the data were processed

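The deposited values are log2 levels. Per the submitters' processing notes, they come from RMA (Expression Console 1.4), which subtracts background, equalises the arrays and summarises probes. The genome build was not given in the sources used here. Of 34390 rows, 23521 had 1 gene symbol, 1814 several and 9055 none. Where a gene had several rows, that with the highest mean was used (22180 genes).

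Genes above the array median on at least 2 of 4 arrays were fitted (13133) with limma 3.58.1 under R 4.3.3, by lmFit and two-sided eBayes with Benjamini-Hochberg adjustment. Differences are CX3CR1bright minus CX3CR1low. Residual degrees of freedom were 2, with 3.28 from the prior. P-values and 95% intervals measure the spread between pools, and the number of arrays limits the precision. The procedure was tested on simulated data, with differences set in 200 genes a run. A set difference of 1 log2 unit was called in 2.2% of cases and one of 2 units in 66%. A gene that did not pass can therefore still differ.

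The 10 members and 18 further lists were chosen with earlier results of these data known. The 18 lists and the 10 members held 234 genes, of which 217 were measured and 192 tested. Named besides the members are Cx3cr1, up to 4 genes of a list with the smallest p, and for 2 members the 3 nearest genes. Genes named for their place relative to background (such as Ccr9, Spib, Tcf4 and Ncr1), the macrophage markers and Tyrobp were chosen after their values were seen. Alternatives were other filters, scalings and variance models, the replicate number as a block, row means and each array left out. Promoter windows are from RefSeq, GRCm38.p6.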

Additional observations from a re-analysis of the deposited data

How the results depend on the processing

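The count of 18 genes past the threshold (limma) was 1 without a filter, 88 when all 4 arrays had to lie above the array median, 1 after quantile normalization, 33 after cyclic loess, 308 with an intensity trend, 1 with a robust prior, 0 with the replicate number as a block, and between 0 and 154 with 1 array left out (0 in 3 cases, 154 without CX3CR1bright replicate 1). The count of members past it was 1 under the stricter filter and under the intensity trend, in both cases Adgrg1, and 0 under the other 11 alternatives, the block included. With 1 array left out, between 6 and 9 of the 9 tested members did not overlap between the subsets (9 without CX3CR1bright replicate 1), against 72.0% to 79.0% of all genes under the same settings. The 9 members above background on both CX3CR1low arrays became 6 with the 99th percentile as limit. Of 9 tested members, 8 kept their sign under all 13 alternatives. Trem2 reversed after quantile normalization (0.00028) and cyclic loess (0.012) and ran from -0.53 to 0.28 with 1 array left out. Tyrobp reversed after quantile normalization (0.028) and ran from -0.29 to 0.067 with 1 array left out. Apart from Tyrobp, the alternatives were run in each further list only for the 4 tested genes with the smallest p. Of the vessel and pigment cell genes so examined, 4 also reversed with 1 array left out: Pecam1 (-0.0580 to 0.49), Dct (-0.0749 to 0.40), Pmel (-0.0456 to 0.27) and Tyrp1 (-0.47 to 0.35). The causes were not tested. The labels do not say that equal replicate numbers share a litter, and the deviations of same-numbered arrays from their subset means correlated at 0.16 across genes. Signal near background limits what can be said of Sall1.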

Other observations

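Other cells of skin were checked with the remaining lists. Of 7 tested Langerhans cell genes, 6 were positive, with a median of 1.88, and 3 had an unadjusted p under 0.05 (limma). Among them, Epcam and Cldn1 were higher on CX3CR1bright replicate 2 than on replicate 1, as the keratinocyte mean was. Of 11 tested conventional dendritic cell genes, 7 were positive, with a median of 0.52. Among these 11, 5 positive genes and 1 negative gene had an unadjusted p under 0.05 (limma). Over all genes tested, 42.5% were positive. The 8 tested mast cell genes had a median of -0.28, with 7 negative, and Tpsb2, a mast cell tryptase, stood at 7.19 and 6.74 in CX3CR1bright cells and at 7.77 and 7.86 in CX3CR1low cells. The 10 tested pericyte and endothelial genes had a median of 0.02 and the 5 tested melanocyte genes one of 0.11. None of these 40 genes (Kit is in both the mast cell and conventional dendritic cell lists) passed over all genes (limma). By the same test, 14 of them had an unadjusted p under 0.05, against 18.8% of all genes tested.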
